A study of Mus musculus with 12 samples.

Results

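The genes described here are 42 mouse genes for enzymes that cut the extracellular matrix and for their inhibitors, out of 21938 protein-coding genes in the GENCODE M21 basic annotation of mm10. They were taken as a written list of 19 Mmp, 19 Adamts and 4 Timp genes, and all 42 matched the annotation. Matrix metalloproteinases (Mmp genes) are zinc-dependent enzymes, made as inactive precursors, that cleave collagens, gelatin, proteoglycans and other matrix proteins. The Adamts genes encode related secreted enzymes with thrombospondin repeats, several of which cleave proteoglycans or trim procollagen. Tissue inhibitors of metalloproteinases (Timp genes) bind the active site of these enzymes, and in bone the balance between both sides governs matrix turnover.

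The cells were mesenchymal stem cells (MSCs) from mice aged 3 to 5 months, given as bone-marrow cells in the labels and isolated from hind limb bone of C57BL/6N mice in the study's methods. In the study's methods the cells first grew out at 2% oxygen and were sorted as negative for CD45 and Ter-119 and positive for CD140a and Sca-1. They were then cultured further at 2% oxygen (hypoxia) or 21% oxygen (normoxia), whereas the labels describe culture at either oxygen level. The labels and the methods both give the sort on day 12. Chromatin immunoprecipitation with sequencing was carried out for H3K27ac, a histone acetylation of active promoters and enhancers, and for H3K4me3, a methylation found mainly at promoters. The 12 libraries formed 6 groups of 2, namely each mark and an input control at each oxygen level. Each mark at each oxygen level had 1 peak list made from both of its libraries, and the inputs had none. The lists carry no read counts, so depth is unknown, no value has a replicate check and no test was made between the oxygen levels. Intervals below are 95% Wilson intervals for a share and cover counting error only.

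The H3K27ac lists held 15203 peaks in hypoxia and 14832 in normoxia, and the H3K4me3 lists 14606 and 14603. The authors' score per peak ran from 50 to 160 or stood at 1000, and since its definition was not stated it is given with its rank, the percentile within its own list. The lists share 1 set of boundaries: of 22555 distinct intervals, 0 overlapped another in part. Of 12 genes that mark mesenchymal stromal cells, 10 had H3K27ac within 1000 bp of a start, among them Pdgfra, Prrx1 and Col1a1, while Lepr and Twist2 had H3K4me3 only. The leukocyte gene Ptprc (CD45) had no H3K27ac in its window, and H3K27ac lay at a start of 0 of 4 endothelial and 0 of 4 erythroid genes. Of 8 leukocyte genes, Cd68 and Csf1r had H3K27ac at a start, and Ctsk was the 1 of 4 osteoclast genes that did. The part of other cells in the results below was not tested.

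To ask which of these genes carried promoter marks, peaks within 1000 bp of an annotated start were counted first. H3K4me3 lay at a start of 31 of 42 members (73.8%, 95% CI 58.9 to 84.7), against 58.9% of all protein-coding genes. H3K27ac lay at a start of 13 members (31%, 95% CI 19.1 to 46), against 37.7% of all genes. H3K4me3 without H3K27ac was found at 18 members, a state that 22.4% of all genes had. The remaining 11 members had neither mark at a start, and 0 had H3K27ac alone. These states were the same at both oxygen levels. Some of them rest on low scores. Without the lowest-scoring 25% of each list, 25 members had H3K4me3 at a start and 11 had H3K27ac. The 6 that lost H3K4me3, in both lists, were Adamts15, Adamts18, Adamts19, Mmp16, Mmp25 and Timp1. H3K27ac was lost by Adamts10 and Mmp19 in both lists and by Mmp2 in normoxia only. In the whole window, defined as the gene and 20000 bp on each side, 22 members had an H3K27ac peak, against 55.2% of all genes. No peak of any list lay in the window of 8 members, namely Mmp8, Mmp3, Mmp7, Mmp10, Mmp12, Mmp20, Adamts16 and Timp4, and 28.2% of all genes had such an empty window.

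**Figure D1:**
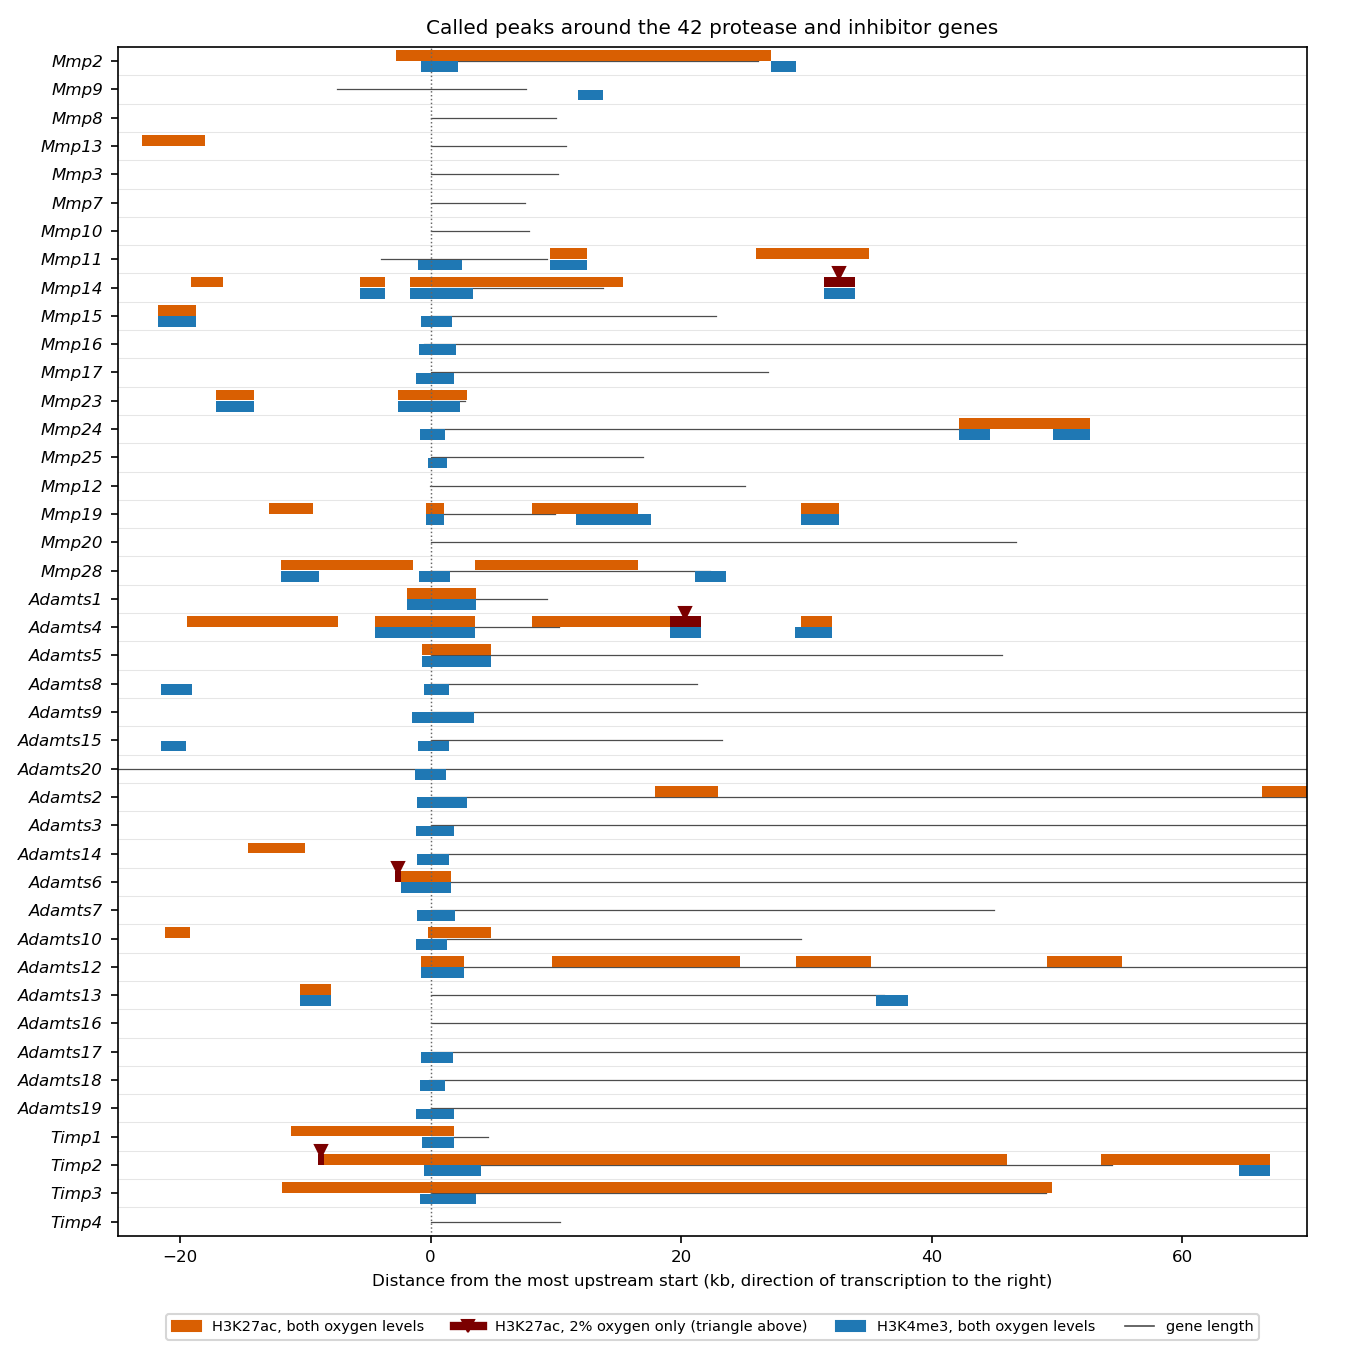
Each row is 1 of the 42 genes, and the horizontal axis is the distance from the most upstream start of its basic transcripts in kb, cropped at 70 kb. Orange bars are H3K27ac peaks and blue bars H3K4me3 peaks called at both oxygen levels, dark red bars under a triangle are the 4 H3K27ac peaks called at 2% oxygen only, and thin lines are the genes. H3K4me3 is seen at the start of 31 genes and H3K27ac at the start of 13.

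The gelatinases, which cleave denatured collagen, were split. Mmp2 (chromosome 8, 92827291 to 92853420, plus strand) lay whole under H3K27ac at both oxygen levels, in a block (peaks that touch, joined) of 30.0 kb from 92824501 to 92854500. Its start carried H3K4me3 with a score of 132 in both lists. The H3K27ac score at the start was 100 in hypoxia (rank 43.8) and 66 in normoxia (rank 20.5), while the 25000 bp segment over the rest of the gene scored 90 and 88. Mmp9 had no H3K27ac in its window, and its 1 H3K4me3 peak lay at the start of the neighbouring gene Slc12a5.

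The secreted collagenases and stromelysins lay mostly in 1 cluster on chromosome 9 that carried no peak. Of the members, 7 fall there: the collagenases Mmp8 and Mmp13, the stromelysins Mmp3 and Mmp10, matrilysin (Mmp7), the elastase Mmp12 and the enamel protease Mmp20. From the start of Mmp13 at 7272514 to the end of Mmp7 at 7699585, 427 kb with 9 protein-coding genes held 0 peaks of the 4 lists. The nearest peak on the Mmp13 side was an H3K27ac peak from 7249501 to 7254500, between genes and without H3K4me3. It ended 18014 bp before the Mmp13 start and scored 64 at each oxygen level (rank 16.4 in hypoxia and 18.3 in normoxia). On the Mmp7 side the nearest peak was 52.9 kb away, so that 498 kb were free of peaks. Outside this cluster, 31 of 35 members (88.6%) had H3K4me3 at a start. Leaving out 7 genes without the mark could only raise the share above the 73.8% of all members. The share of all protein-coding genes, with none left out, was 58.9%. A gene without a called peak may still carry the mark below the caller's limit.

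The promoters of this cluster also shared sequence features that the choice of genes did not use. In the 300 bases from 250 before to 50 after the most upstream start, the AP-1 motif (TGANTCA) was found in 5 of 7 genes (71.4%) and the TATA box (TATAAA) in 6 of 7 (85.7%). Over all protein-coding genes the shares were 6.7% and 12.5%, and over all genes with neither mark 10.1% and 21.1%. The 7 genes are neighbours of common descent and are not independent. Mmp13 is shown because it is the member nearest to the H3K27ac peak, and Mmp3 and Mmp10, chosen after their values were seen, because they carry both motifs at a short distance. Sequences are from RefSeq (GRCm38.p6), run 5′ to 3′ on the gene's strand, and end before the start. Capitals mark matches on either strand to the motifs searched, which beside these were Runx (TGTGGT), Ets (AGGAAG), GC box (GGGCGG), Tead (GGAATG) and the hypoxia response core (ACGTG or GCGTG).
Mmp13 (chr9:7272264-7272513, plus strand): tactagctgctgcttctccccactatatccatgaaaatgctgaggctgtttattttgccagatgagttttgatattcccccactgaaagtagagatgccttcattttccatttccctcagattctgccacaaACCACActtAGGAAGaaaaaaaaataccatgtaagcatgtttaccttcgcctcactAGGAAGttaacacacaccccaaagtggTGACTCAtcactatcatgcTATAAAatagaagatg
Mmp3 (chr9:7445702-7445821, plus strand): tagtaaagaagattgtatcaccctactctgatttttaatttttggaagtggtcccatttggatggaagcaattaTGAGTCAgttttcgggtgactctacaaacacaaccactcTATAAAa
Mmp10 (chr9:7502222-7502341, plus strand): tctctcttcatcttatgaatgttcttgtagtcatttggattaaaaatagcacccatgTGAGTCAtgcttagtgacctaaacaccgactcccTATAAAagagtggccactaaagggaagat
Counted from the GENCODE start, the AP-1 match began at -35 in Mmp13, -46 in Mmp3 and -73 in Mmp10, and the TATA match followed it at -16, -7 and -39. A match is a run of letters and not a measured site.

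All 7 membrane-anchored enzymes had H3K4me3 at a start, and 2 of them also had H3K27ac. Mmp14 (chromosome 14, 54431612 to 54445364, plus strand), which activates the Mmp2 precursor at the cell surface, lay whole under an H3K27ac block of 17 kb. The segment at its start, from 54430001 to 54435000, scored 1000 at both oxygen levels. The next segment, from 54435001 to 54447000, scored 1000 in hypoxia (rank 88.9) and 85 in normoxia (rank 37.9), the widest rank gap among the members' shared peaks at 50.9 points. Mmp23, the other one, lay whole under H3K27ac and scored 1000 at its start in both lists. Mmp15, Mmp16, Mmp17, Mmp24 and Mmp25 had H3K4me3 without H3K27ac at the start, and the H3K4me3 score of Mmp25 was low, at 55 (rank 1.25).
Mmp14 (chr14:54431348-54431597, plus strand): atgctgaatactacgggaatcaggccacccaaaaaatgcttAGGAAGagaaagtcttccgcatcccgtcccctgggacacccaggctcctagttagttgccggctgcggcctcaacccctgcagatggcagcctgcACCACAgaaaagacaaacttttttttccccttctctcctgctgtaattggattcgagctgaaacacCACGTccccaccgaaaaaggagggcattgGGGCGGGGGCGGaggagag
The Mmp14 promoter, shown because its gene had both a fully covered body and a hypoxia-only peak in its window, held GC boxes at -33 and -27 and a hypoxia response core at -62. GC boxes were found in 44.9% and the core in 48.4% of all promoters.

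Among the other secreted metalloproteinases, Mmp19 had both marks at its start, with a low H3K27ac score of 59 in hypoxia (rank 11.3) and 58 in normoxia (rank 11.1). Mmp28 had H3K4me3 alone at the start and a 13000 bp H3K27ac peak within the gene, over 58.3% of its length. Mmp11 (stromelysin-3) had H3K4me3 at a start that lies within 1000 bp of a start of Chchd10, and its window held H3K27ac at the start of Smarcb1.

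Of the Adamts genes, 17 of 19 had H3K4me3 at a start (89.5%, 95% CI 68.6 to 97.1) and 6 had H3K27ac there (31.6%, 95% CI 15.4 to 54). All protein-coding genes had shares of 58.9% and 37.7%, and the interval for H3K27ac includes the latter. In the proteoglycan-cleaving group H3K4me3 was at the start of 7 of 7 genes, and H3K27ac was at Adamts1, Adamts4 and Adamts5. Adamts1 and Adamts5 each had 1 H3K27ac peak of 5500 bp with a score of 1000 in both lists. Adamts4 (chromosome 1, 171250421 to 171260637, plus strand) had 34.1 kb of H3K27ac in its window in hypoxia, behind Timp2 and Timp3 only, and 31.6 kb in normoxia, where Adamts2 was also higher. Its start segment scored 125 (rank 57.4) and 86 (rank 38.7). Adamts8, Adamts9, Adamts15 and Adamts20 had H3K4me3 alone, and Adamts8 and Adamts15 are neighbours whose start peaks fall in each other's windows.

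The procollagen-processing enzymes Adamts2, Adamts3 and Adamts14, which remove the amino-terminal propeptide, had H3K4me3 at 3 of 3 starts and H3K27ac at 0. Adamts2 nevertheless had 33.6 kb of H3K27ac in its window at each oxygen level. Its 3 peaks within the gene overlapped no annotated exon and began 17917, 66417 and 96417 bp after the start. Their scores were 82, 110 and 129 in hypoxia and 78, 107 and 93 in normoxia.
Adamts2 (chr11:50601835-50602083, plus strand): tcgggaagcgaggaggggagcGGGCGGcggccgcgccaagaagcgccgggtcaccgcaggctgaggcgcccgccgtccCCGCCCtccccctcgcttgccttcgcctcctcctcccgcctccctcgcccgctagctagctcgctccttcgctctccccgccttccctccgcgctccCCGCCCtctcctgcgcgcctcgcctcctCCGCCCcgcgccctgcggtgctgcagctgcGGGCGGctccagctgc
This promoter, chosen after its values were seen as an example of H3K4me3 without H3K27ac, held 5 GC boxes and 34 CpG dinucleotides. Its CpG content stands against that of Mmp13, which had 1 CpG in the 250 bases printed.

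Among the other Adamts genes, Adamts6, Adamts10 and Adamts12 had both marks at a start. Adamts12 had 3 further H3K27ac peaks within the gene, none over an exon, and 30.5 kb in its window at each oxygen level. Adamts10 had low H3K27ac scores at its start, 53 in hypoxia (rank 4.19) and 54 in normoxia (rank 6). Adamts13, the protease of von Willebrand factor, and Adamts16 had no mark at a start.

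The inhibitors Timp3 and Timp2 held the widest H3K27ac blocks of the 42 genes. Timp3 (chromosome 10, 86300372 to 86349506, plus strand), which binds to the matrix, lay whole under 61.5 kb of H3K27ac from 86288501 to 86350000, at percentile 99.5 of the widths of all hypoxia H3K27ac blocks. Its start segment scored 123 in hypoxia (rank 55.7) and 87 in normoxia (rank 39.4), and the 46000 bp segment after it 73 and 71. Timp2 (chromosome 11, 118301069 to 118355740, minus strand), which takes part in Mmp2 activation by Mmp14, had a block of 55.0 kb in hypoxia and 54.5 kb in normoxia, over 86.3% of the gene together with a second block at its end. The 42000 bp segment within Timp2 scored 1000 in hypoxia and 135 in normoxia, with ranks of 88.9 and 75.9. Timp1 (chromosome X, 20870166 to 20874735, plus strand) had a block of 13.0 kb, most of it before the start. Its start segment scored 101 in hypoxia (rank 44.4) and 117 in normoxia (rank 58.4), and its H3K4me3 score was low, at 79 (rank 6.86). Timp4 had no peak in its window.
Timp1 (chrX:20869916-20870165, plus strand): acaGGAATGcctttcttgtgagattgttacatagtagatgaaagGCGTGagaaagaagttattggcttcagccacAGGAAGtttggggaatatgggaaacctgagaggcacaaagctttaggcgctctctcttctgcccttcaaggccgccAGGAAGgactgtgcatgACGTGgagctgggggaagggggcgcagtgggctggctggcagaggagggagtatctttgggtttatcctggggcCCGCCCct
Timp3 (chr10:86300162-86300371, plus strand): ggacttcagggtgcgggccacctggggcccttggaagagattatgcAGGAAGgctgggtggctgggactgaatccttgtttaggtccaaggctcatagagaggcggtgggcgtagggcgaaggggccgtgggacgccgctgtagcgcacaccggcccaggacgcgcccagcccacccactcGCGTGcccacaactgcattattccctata
These promoters are shown as inhibitor starts with both marks. The Timp2 promoter is not printed, because the start used lies inside the annotated gene. The hypoxia response core was matched at -206 and -82 in Timp1 and at -29 in Timp3. It was no more frequent in the members: 15 of 42 promoters held it (35.7%), against 48.4% of all genes. Of members with both marks 7 of 13 held it (53.8%), against 66.1% of all genes in that state.

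**Figure D2:**
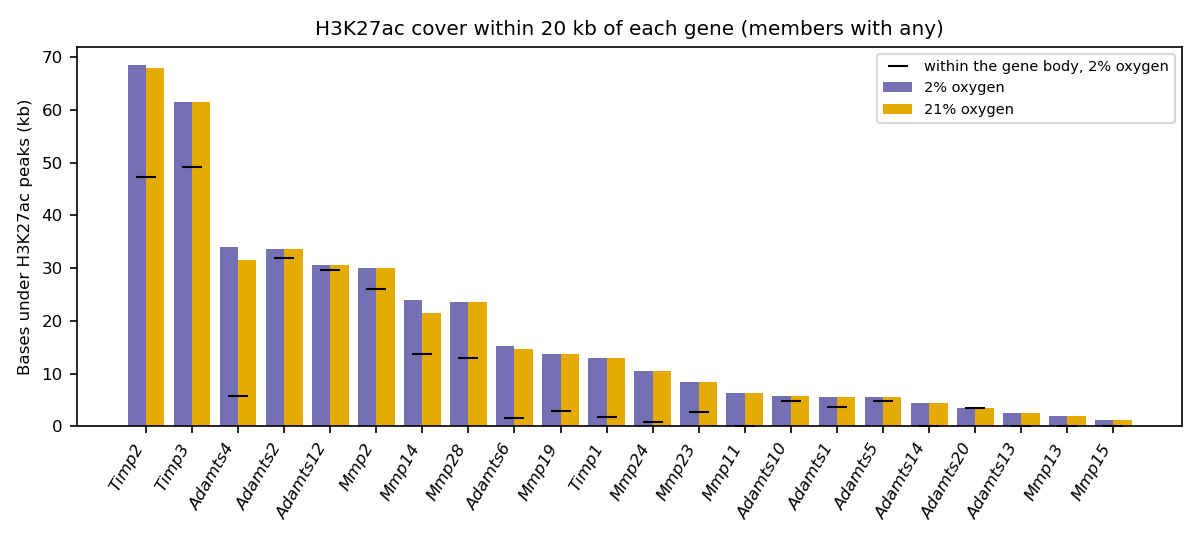
Bars give the kb under H3K27ac peaks in the window of each of the 22 members with any, at 2% and 21% oxygen, and black dashes the part within the gene at 2% oxygen. Timp2 (68.5 and 68 kb) and Timp3 (61.5 kb at each) stand highest, and the bars of the oxygen levels differ for Timp2, Adamts4, Mmp14 and Adamts6.

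Over all member windows, 4.72 Mb in all, H3K27ac covered 403 kb (8.55%) in hypoxia and 398 kb (8.43%) in normoxia. The windows of all protein-coding genes were covered to 5.52% and 5.39%. H3K4me3 covered 3.19% of the member windows at both oxygen levels, against 2.71% for all genes. The cover was uneven: the median member had 1.61 kb in hypoxia, all genes had a median of 2.5 kb, and 20 members had 0. Among genes with H3K27ac at a start, the median was 15.2 kb for the 13 members and 7 kb for all 8273. Of genes at least 20 kb long, Mmp2 and Timp3 were fully covered, 2 of 27 members (7.41%) against 64 of 10159 genes (0.63%). This last count was chosen after its values were seen.

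The effect of oxygen on the called peaks was compared next. Of 61 H3K27ac peaks in the member windows, 57 were called at both oxygen levels, 4 in hypoxia only and 0 in normoxia only. The hypoxia-only share of 6.56% (95% CI 2.58 to 15.7) compares with 3.87% of the whole hypoxia list, and the normoxia-only share of 0 of 57, with an upper limit of 6.31%, with 1.47% of the whole normoxia list. Counted by gene, 4 of 42 members (9.52%) had a hypoxia-only peak, against 4.7% of all genes, and 0 had a normoxia-only peak, against 1.15%. All 53 H3K4me3 peaks in the windows were called at both oxygen levels, and 0.0638% of all genes had one that was not. With so few peaks, the intervals include the shares of the whole lists.

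None of the 4 hypoxia-only peaks lay at a start of a member or within it. In the Mmp14 window, the peak from 54463001 to 54465500 lay at the start of Lrp10, 31368 bp from the nearest Mmp14 start, with a score of 86 (rank 35.2). The nearest normoxia peak was 16000 bp away. In the Adamts4 window, the peak from 171269501 to 171272000 lay at the start of B4galt3, with a score of 57 (rank 9.09), and touched a peak called at both oxygen levels. The other two were single steps of 500 bp at the edge of a member's own start block. The Adamts6 one, from 104285001 to 104285500, had a score of 52 (rank 2.81) and ended 2373 bp before the start. The Timp2 one, from 118364001 to 118364500, had a score of 50 (rank 0.365), the lowest score of the list, and ended 8495 bp before the start. Of all 589 hypoxia-only peaks, 229 (38.9%) touched a normoxia peak and 27 (4.58%) were 500 bp wide. With no peak of the normoxia list allowed within 1000 bp, or with the lowest-scoring 25% left out of the counted list, 1 of the 4 was left, the one at Lrp10. Counting only peaks nearest to a member's start left 2, those of Adamts6 and Timp2.

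The middle 300 bases of these 500 bp steps, read from the GRCm38.p6 genome on the gene's strand, are shown because they are the hypoxia-only sequence nearest to a member.
Adamts6 (chr13:104285101-104285400, plus strand): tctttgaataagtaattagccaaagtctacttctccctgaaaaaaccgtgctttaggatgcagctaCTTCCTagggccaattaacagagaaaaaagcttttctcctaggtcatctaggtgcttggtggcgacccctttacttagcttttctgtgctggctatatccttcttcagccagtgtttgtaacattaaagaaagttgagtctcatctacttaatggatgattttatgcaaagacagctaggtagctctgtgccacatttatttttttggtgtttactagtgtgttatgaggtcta
Timp2 (chr11:118364101-118364400, minus strand): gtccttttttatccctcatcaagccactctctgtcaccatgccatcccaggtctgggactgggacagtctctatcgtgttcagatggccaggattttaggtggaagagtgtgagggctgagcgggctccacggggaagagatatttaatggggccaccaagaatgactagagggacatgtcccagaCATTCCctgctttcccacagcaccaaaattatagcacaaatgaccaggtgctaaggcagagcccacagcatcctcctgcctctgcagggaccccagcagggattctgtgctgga
The Adamts6 step held 1 Ets match and the Timp2 step 1 Tead match, and the other motifs were not matched. In windows of 300 bases cut in the same way from the middle of all 589 hypoxia-only H3K27ac peaks, Ets was matched in 36.8% and Tead in 16.5%. Over 7337 windows from H3K27ac peaks of both oxygen levels without H3K4me3, the shares were 34.9% and 17.9%.

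Peaks called at both oxygen levels were compared by their scores. Of the 57 in member windows, the score was higher in hypoxia for 31 (54.4%), equal for 18 and higher in normoxia for 8, and of all 14614 shared peaks it was higher in hypoxia for 39.9%. A rank at least 20 points higher in hypoxia, a limit chosen after the values were seen, was found for 7 of the 57 (12.3%, against 8.36% of all) and the reverse for 0 (against 3.38%). The 7 were the segment within Mmp14, the starts of Mmp2 and Adamts6, 2 segments at BC029722 and Eif6 in the Mmp24 window, and 2 at the Usp36 end of Timp2. Peak by peak, the rank was higher in hypoxia for 20 of the 57 (35.1%, against 30.3% of all) and higher in normoxia for 37. The median difference, hypoxia minus normoxia, was -1.4 points (-1.67 for all shared peaks). These rank counts carry an offset between the lists, because an equal score ranked higher in the normoxia list. A score of 1000, for example, had rank 88.9 in hypoxia and 90.6 in normoxia. All 18 peaks of equal score were thus counted as higher in normoxia by rank. The median rank of the 57 was 56.4 in hypoxia and 48.7 in normoxia, and that of all shared peaks 51.7 and 50.6. Each list was made from both libraries, so how far a score varies between libraries is unknown.

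**Figure D3:**
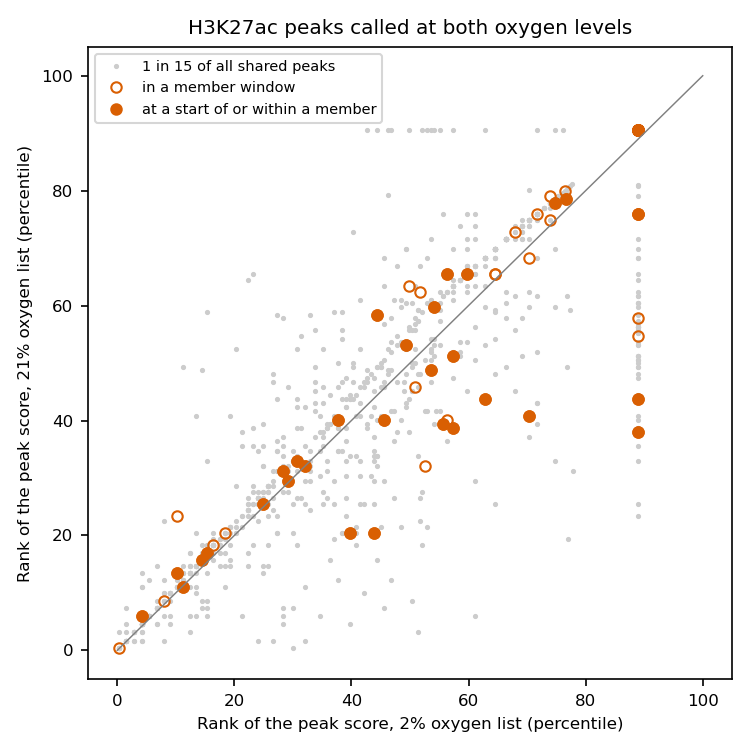
Each point is an H3K27ac peak called at both oxygen levels, with the rank of its score (percentile) in the 2% oxygen list across and in the 21% oxygen list upwards. Filled orange points are the 35 peaks at a start of or within a member, open ones the rest of the 57 in member windows, and grey points a sample of all shared peaks. Of the 57, 7 lie at least 20 points to the right of the line and 0 as far above it.

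Promoter sequence was then set beside the marks. CpG content is given as the observed over the expected number of CpG dinucleotides. The median was 0.0897 for the 11 members with neither mark (0 to 0.226), 0.775 for the 18 with H3K4me3 only (0.573 to 1) and 0.457 for the 13 with both marks (0.0963 to 0.81). All genes in these states had medians of 0.194, 0.704 and 0.805. Members with both marks thus had a lower median than members with H3K4me3 only, whereas among all genes it was the higher. Of the marked members, 4 were at or below the highest unmarked one, Mmp9 at 0.226, and they all had both marks: Mmp19 (0.0963), Adamts4 (0.146), Mmp2 (0.197) and Adamts12 (0.224). GC boxes were found in 13 of 18 members with H3K4me3 only (72.2%), against 63.3% of all genes in that state. Every other motif searched was found in a smaller share of these members than of all genes in that state. The hypoxia response core, for example, was in 33.3% against 60.1%, and Ets in 16.7% against 31.4%.

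**Figure D4:**
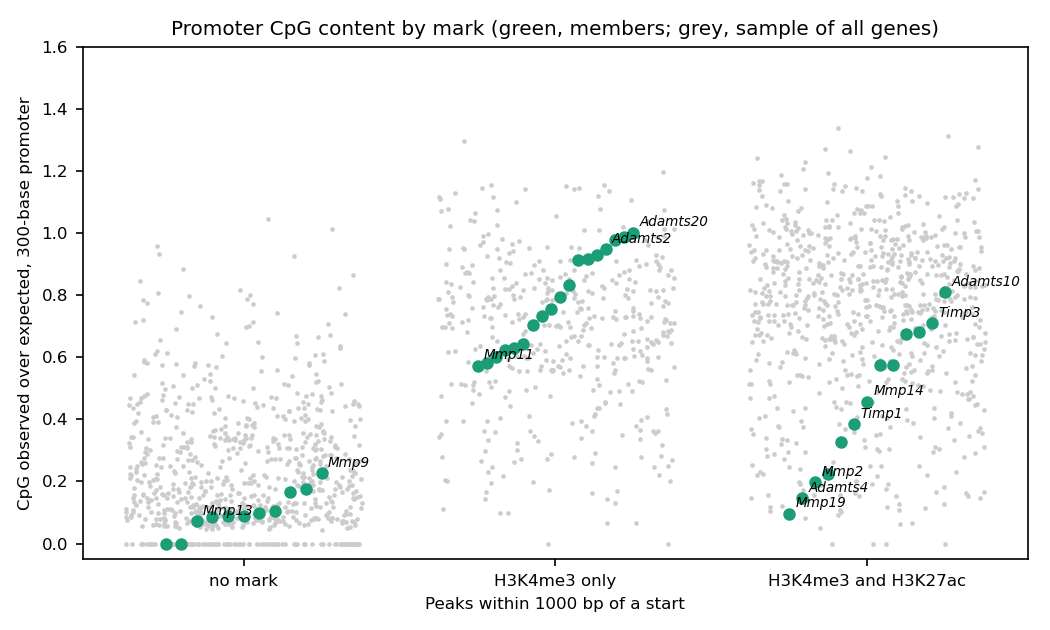
The vertical axis is CpG observed over expected in the 300-base promoter, and the columns are the marks within 1000 bp of a start. Green points are members, spread sideways in order of value, and grey points a sample of all genes. The unmarked members lie between 0 and 0.226, the members with H3K4me3 only between 0.573 and 1, and those with both marks between 0.0963 and 0.81.

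Away from H3K4me3, motif density in the H3K27ac segments of the member windows was set beside that of all such segments. The AP-1 motif occurred 0.37 times per kb in the 33 member segments and 0.382 in all 7946. Runx was found 0.988 and 0.912 times per kb, and Tead 0.679 and 0.633.

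Other genes of matrix proteolysis were counted from a written list, of which 61 of 62 matched. H3K4me3 lay at a start of 48 (78.7%, 95% CI 66.9 to 87.1) and H3K27ac at a start of 32 (52.5%, 95% CI 40.2 to 64.5). The shares of all protein-coding genes were 58.9% and 37.7%. The latter is also the share to set beside the counts by role, each of which is of few genes. By role, H3K27ac was at the start of 5 of 6 cathepsin and cystatin genes, 5 of 6 other regulators such as Reck, a membrane inhibitor of metalloproteinases, and Lrp1, a receptor that clears them, and 3 of 9 plasminogen system genes. The counts were 5 of 9 for ADAM proteases, 7 of 10 for proteoglycan and glycoprotein substrates, 3 of 7 for tolloid and HtrA genes, 2 of 4 for proprotein convertases, 2 of 7 for ADAMTS-like genes and 0 of 3 for other Mmp genes. A hypoxia-only H3K27ac peak lay in the window of 9 genes (14.8%, against the 4.7% given above). The median window was 68.7 kb for the listed genes and 57.4 kb for all genes. For 5 of the 9, Adamtsl3, Htra1, Cst3, Thbs2 and Tnc, such a peak lay at a start. The share of all genes with one at a start was not counted, so this count has no background. Cst3 encodes cystatin C, a cathepsin inhibitor, and its peak scored 87 (rank 35.8). The start peaks of Htra1 (score 50, rank 0.365), Tnc (52, rank 2.81) and Thbs2 (58, rank 10.2) were near the bottom of the list. The Adamtsl3 window held 3 such peaks, with scores of 99, 78 and 64. Bmp1, the procollagen C-proteinase, had a 14000 bp hypoxia-only peak within the gene with a score of 61. The normoxia-only peak of the list, 16000 bp within Thbs1, scored 50 (rank 0.398).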

How the data were processed

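According to the labels and the study's methods, the authors aligned reads to the mm10 genome using Bowtie2 and took out duplicates with Picard. Peaks came from chromstaR, run to contrast hypoxia with normoxia. The 4 deposited lists, 1 for each mark in each condition, pool both libraries and give a score per peak whose definition was not stated. Since the conditions were modelled jointly, the number of differences called depends on that model.

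Peaks were read in the window of each gene (20000 bp on each side) and at its starts (within 1000 bp). Hypoxia-only and normoxia-only (together condition-specific) peaks had no base in the list of the same mark in the other condition. Starts are those of transcripts in the basic annotation, and distances and promoters use the most upstream of them. For 9 of 42 members (among them Mmp9, Mmp11, Adamts20 and Timp2) this start lies inside the gene as annotated. Interval code was tested on simulated data. Python 3.11.15 with numpy 2.4.6, scipy 1.17.1 and matplotlib 3.10.9 was used. The members and lists were chosen with earlier results of these data known. Named with positions were members with a condition-specific peak, the Timp genes, Mmp2, Mmp13, Mmp14, the chromosome 9 cluster and the 3 members with the most H3K27ac, and by name members with an empty window. Values of other members were picked after they were seen. RefSeq promoters were given for 28 of 42 members. Motif shares were taken over promoters of 300 bases, and for the hypoxia-only steps over 300-base windows from the middle of peaks. Input libraries were not analysed here.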

Additional observations from a re-analysis of the deposited data

How the results depend on the processing

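The lists pool libraries, so depth and replicate spread limit every value. With the gene body only, hypoxia-only peaks and members with one fell to 0 and 0, and H3K27ac covered 7.9% of the bases in hypoxia. With 5000 bp on each side they were 1 and 1. With 50000 bp the cover was 7.52% in hypoxia and 7.36% in normoxia. Without the lowest-scoring 25% of each list, 2 members had a hypoxia-only peak, Mmp14 and Mmp2, whose start peaks then fell out of the normoxia list alone, and the normoxia cover was 7.87%. Counting only peaks nearest to a member's start gave 2 peaks in 2 members, no normoxia peak within 1000 bp gave 1 and 1, and leaving the lowest-scoring 25% out of the counted list gave 1 and 1. The other 49 of 64 values stayed within the limits set, which for counts was 1.5 times. Many of these could not have moved, so their number is no measure of stability. The normoxia-only and condition-specific H3K4me3 counts were 0. They must stay at 0 under a setting that only narrows the window or takes peaks out of the count. Requiring 50% cover by the other list could change nothing, because overlapping intervals are identical. No paired analysis was possible because each list pools both libraries and carries no replicate numbers, and leaving out a replicate could not be run for the same reason.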
